A study of Mus musculus with 14 samples.

Results

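The chemokines Cxcl9, Cxcl10 and Cxcl11 and their shared receptor Cxcr3 were followed in B16F10 melanoma tumours of mice given tumour-specific T cells. Members were the genes whose symbol the array files assign to a non-control probe, and each of the 4 genes has 1 probe, printed as 1 spot. These are 4 of 27597 genes, and 4 of 41174 non-control probes, on the array. The measurements are 14 Agilent one-colour arrays of tumour RNA from C57BL/6 mice, each carrying pooled RNA of 3 or 4 tumours, so the spread between single mice was not measured. All mice carried tumours grown from 1000000 injected B16F10 cells, a pigmented melanoma line of C57BL/6 origin. The untreated arm (4 arrays, days 1, 3, 5 and 7) received no T cells. The CTL arm (4 arrays, the same days) received 10000000 cytotoxic T cells 9 days after tumour injection, which is day 0. These cells were CD90.1+, specific for the melanocyte antigen gp100 and activated in culture. The anti-IFNg arm and the IgG arm (3 arrays each, days 3, 5 and 7) received the same CTLs plus an antibody against interferon gamma or control rat IgG on days 0 and 2. Arms other than the untreated arm therefore all carry the transferred CTLs, and arms are compared over days, not over animals. The tumour label was borne out by 8 of 8 melanocyte genes, which were well above background on every array with a summed signal of 1374 to 1911 times the array's 75th percentile.

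CXCR3 is a chemokine receptor of activated CD8 T cells, type 1 helper T cells and natural killer cells. Its ligands are small secreted proteins that myeloid, endothelial, stromal and tumour cells make when interferon gamma reaches them, and they draw CXCR3-bearing cells into inflamed tissue and tumours. CXCL9 depends mainly on interferon gamma, whereas CXCL10 and CXCL11 are also induced by type I interferons and, for CXCL10, by tumour necrosis factor through NF-kB. C57BL/6 mice carry a Cxcl11 allele that yields no functional protein, and the RefSeq gene table for GRCm38.p6 lists Cxcl11 as a transcribed pseudogene. A Cxcl11 value here is thus a transcript level with no statement on protein.

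RefSeq promoters (build GRCm38.p6, 250 bases before to 50 bases after the gene start) were matched by symbol for 3 of the 4 genes. They are shown because Cxcl9 and Cxcl10 were high on the same arrays and Cxcr3 was low there. The letters run 5′ to 3′ along the minus strand, which is the strand of each gene. Capitals mark matches, on either strand, to 3 motifs: the interferon-stimulated response element core GAAANNGAAA, the gamma-activated site TTCNNNGAA and the NF-kB core GGGNNTTCC. The windows lie at chr5:92328030-92328329 for Cxcl9, chr5:92348840-92349139 for Cxcl10 and chrX:101734098-101734397 for Cxcr3.
Cxcl9: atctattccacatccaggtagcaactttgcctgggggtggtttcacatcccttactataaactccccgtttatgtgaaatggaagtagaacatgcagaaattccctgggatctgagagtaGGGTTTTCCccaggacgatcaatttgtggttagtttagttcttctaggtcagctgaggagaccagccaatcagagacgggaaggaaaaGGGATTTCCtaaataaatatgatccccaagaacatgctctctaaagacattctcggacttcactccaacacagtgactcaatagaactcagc
Cxcl10: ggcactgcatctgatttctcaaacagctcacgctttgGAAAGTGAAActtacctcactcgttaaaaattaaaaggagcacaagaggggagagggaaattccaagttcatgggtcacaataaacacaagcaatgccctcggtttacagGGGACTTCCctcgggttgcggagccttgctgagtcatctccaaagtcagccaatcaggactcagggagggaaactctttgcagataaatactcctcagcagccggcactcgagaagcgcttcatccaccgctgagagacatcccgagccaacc
Cxcr3: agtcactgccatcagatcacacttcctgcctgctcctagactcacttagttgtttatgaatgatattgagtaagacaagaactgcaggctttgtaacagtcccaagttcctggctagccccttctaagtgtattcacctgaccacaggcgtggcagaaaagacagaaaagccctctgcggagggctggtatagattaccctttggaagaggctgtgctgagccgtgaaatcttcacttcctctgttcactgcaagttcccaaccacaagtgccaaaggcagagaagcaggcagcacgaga
The Cxcl9 window held 2 NF-kB core matches, 130 to 122 and 42 to 34 bases before the start. The Cxcl10 window held an interferon-stimulated response element match 213 to 204 bases before the start and an NF-kB core match 103 to 95 bases before it. The Cxcr3 window held none of the 3, and no match to TTCNNNGAA was found in any of the 3 windows, which says only that these letters are not there. No matches overlapped each other. Of 32544 distinct RefSeq promoter windows of the same length, 3.45% held GAAANNGAAA, 8.33% held TTCNNNGAA and 5.85% held GGGNNTTCC. A match is a description of letters and no measure of binding.

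The 3 ligand probes lie on the minus strand of chromosome 5 in build mm8, the build of the array files. Cxcl9 is read at chr5:93398365-93398424, Cxcl10 at chr5:93421955-93422014 and Cxcl11 at chr5:93436297-93436448. The Cxcl11 span of 152 bases is longer than the 60 bases of the other probes. The Cxcr3 probe lies at chrX:97934300-97934359, also on the minus strand. Levels below are log2 of the processed signal minus the array's 75th percentile, so 0 is the 75th percentile of the array and 1 unit is a doubling. Such levels are compared between arrays for 1 probe and never between probes. The Cxcl9, Cxcl10 and Cxcr3 probes were well above background on all 14 arrays, and the Cxcl11 probe on 8 of 14.

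Cxcl9, the most interferon gamma-dependent of the ligands, stood at log2 levels of -1.73, -3.71, -2.35 and -3.37 in untreated tumours on days 1, 3, 5 and 7. In the CTL arm it stood at -0.53, 5.05, 2.96 and 1.64 on the same days. In the IgG arm it stood at 4.21, 3.18 and 0.96 on days 3, 5 and 7. Every CTL and IgG array from day 3 on lay above every untreated array, and both arms were highest on day 3 and lowest on day 7. With interferon gamma blocked, Cxcl9 stood at -0.40, -2.02 and -4.02 on days 3, 5 and 7. These levels lay below every CTL and IgG array of days 3 to 7 and overlapped the untreated range. On day 3 the blocked array was still 3.32 above the untreated array of that day, and on day 7 it was 0.65 below (a log2 difference of -0.65).

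Cxcl10, the ligand that interferons and tumour necrosis factor both induce, already stood at 1.84, 1.33, 2.22 and 1.66 in untreated tumours on days 1, 3, 5 and 7. In the CTL arm it stood at 2.02, 5.70, 3.46 and 2.12. In the IgG arm it stood at 5.40, 3.69 and 2.17 on days 3, 5 and 7. The day 3 and day 5 arrays of both arms lay above all untreated arrays, whereas their day 7 arrays lay within the untreated range. With the block, Cxcl10 stood at 1.23, 1.03 and 1.63 on days 3, 5 and 7. These 3 levels were below the untreated array of the same day by 0.10, 1.19 and 0.03 (log2 differences of -0.10, -1.19 and -0.03).

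Cxcl11, the transcript without a functional product in this strain, was near the detection limit in untreated tumours, at -4.62, -4.56, -3.47 and -3.99, and only the day 5 and day 7 arrays were well above background. In the CTL arm it stood at -4.29, 1.70, -1.20 and -2.83 on days 1, 3, 5 and 7, with the day 1 array not well above background. In the IgG arm it stood at 0.94, -1.19 and -3.90, with the day 7 array not well above background. With the block it stood at -4.76, -5.13 and -4.03, and only the day 7 array was well above background. The CTL and IgG arrays of days 3 and 5 lay above all untreated and anti-IFNg arrays. Where the darker array was not well above background a fold is a bound against the lowest well-detected signal of that array or the probe's own level, whichever was higher. On day 3 Cxcl11 was at least 69.1-fold higher in the CTL array than in the untreated array. It was at least 30.2-fold lower in the anti-IFNg array than in the IgG array on day 3 and at least 9.07-fold lower on day 5.

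The probe of Cxcr3, the receptor of all 3 ligands, was low where the ligands were high. Whether it measures the receptor's mRNA was not tested. It was well above background on every untreated array, as was Cd3e, whereas Cd8a and Tbx21 were not on any of these arrays. The Cxcr3 probe stood at 1.35, 1.32, 1.17 and 1.20 in untreated tumours on days 1, 3, 5 and 7. In the CTL arm it stood at 1.38, -0.30, 0.38 and 0.65 on the same days. In the IgG arm it stood at -0.03, 0.55 and 0.93 on days 3, 5 and 7. With the block it stood at 1.23, 1.42 and 1.53. The CTL and IgG arrays of days 3 to 7 lay below all untreated and all anti-IFNg arrays. How many of all genes separate the arms in this way, as Cxcr3 or as the ligands, was not counted. On day 1 the CTL and untreated arrays differed by 0.03.

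**Figure D1:**
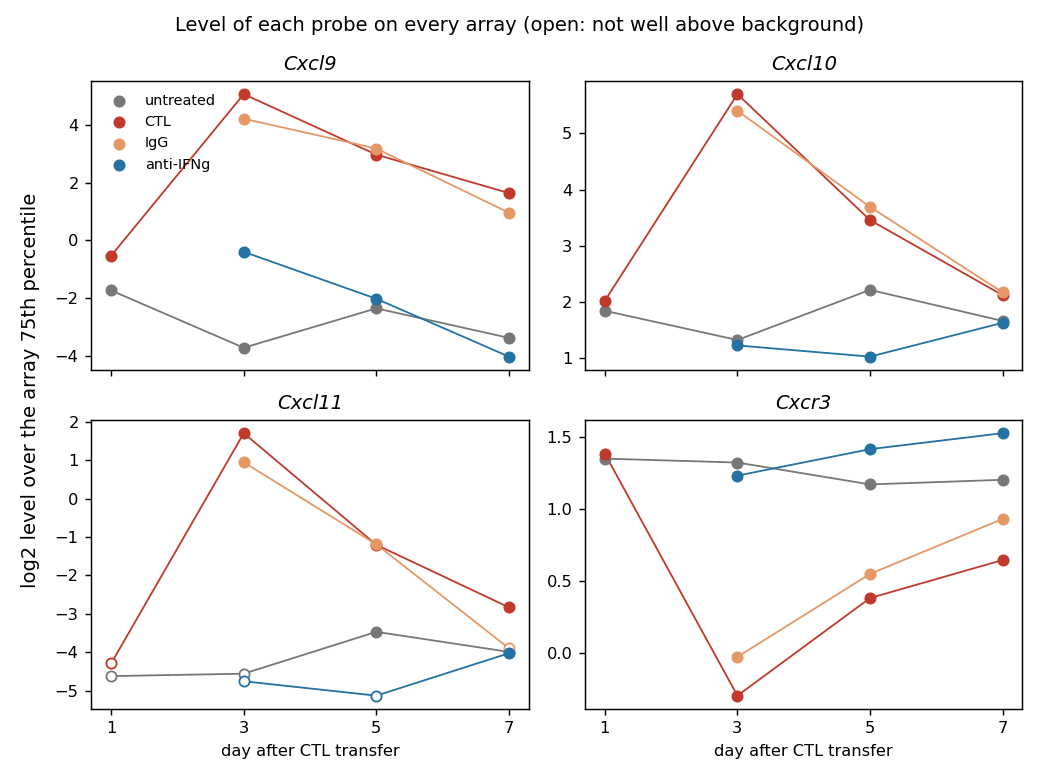
Log2 level of each probe over the array's 75th percentile (y axis) against day after CTL transfer (x axis), 1 point per array, coloured by arm, with open points where the probe was not well above background. The ligands of the CTL and IgG arms were highest on day 3 and declined to day 7, while Cxcr3 was lowest on day 3 in the same arms.

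Arms were compared with limma across 16583 genes, with arm and day as terms and Benjamini-Hochberg adjustment over all genes at a two-sided 0.05. Each estimate averages days 3, 5 and 7 (n = 3 days), and errors are standard errors. Every day has a slide of its own, and the day term therefore also removes differences between slides. Each arm kept the same position on every slide, so array position and arm cannot be told apart. The p-values measure how same-day differences between pooled samples varied from day to day.

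Between CTL and untreated tumours, which asks what CTL transfer did to the axis, Cxcl9 rose by 6.36 ± 0.72 on the log2 scale, an 82.2-fold change (limma, adjusted p = 0.000902). The means were 3.22 ± 1.72 in the CTL arm and -3.14 ± 0.71 in the untreated arm (SD, n = 3 days each). Cxcr3 fell by 0.99 ± 0.21 on the log2 scale, a 1.98-fold reduction (limma, adjusted p = 0.0101), from a mean of 1.23 ± 0.08 to 0.24 ± 0.49 (SD, n = 3 days each). Cxcl11 differed by 3.23 ± 1.13 (limma, adjusted p = 0.0601) and Cxcl10 by 2.02 ± 0.80 (limma, adjusted p = 0.0870), so neither passed. Both were higher in the CTL array on 3 of 3 days, and without day 3 Cxcl10 was at 0.85 and Cxcl11 at 1.71. Thus 2 of the 4 members passed, beside 32.1% of all genes tested, of which 1714 were higher and 3605 lower, with a median difference of -0.11 over all genes. Without day 3 the Cxcl9 difference was 5.16 (limma, adjusted p = 0.00335), and without day 5 or day 7 it was 6.89 and 7.04. Cxcr3 was no longer called without day 3 (log2 difference -0.67, adjusted p = 0.0631) or without day 5 (-1.09, adjusted p = 0.119). Cxcl11 passed without day 7 (4.26, adjusted p = 0.0340), without the day term that pairs the arms (3.38, adjusted p = 0.0358), with an intensity trend (adjusted p = 0.0343) and with normexp background correction (1.84, adjusted p = 0.0421).

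The anti-IFNg and IgG arms address how far the changes need interferon gamma. Cxcl9 was lower with the block by 4.92 ± 0.72, with a log2 difference of -4.92 and a 30.3-fold reduction (limma, adjusted p = 0.00555). The same-day log2 differences were -4.60, -5.19 and -4.98 on days 3, 5 and 7. Cxcr3 was higher with the block by 0.91 ± 0.21, a 1.87-fold change (limma, adjusted p = 0.0257), with same-day differences of 1.26, 0.87 and 0.60. Cxcl10 differed by -2.46 ± 0.80 (adjusted p = 0.0831) and Cxcl11 by -3.26 ± 1.13 (adjusted p = 0.0989), and neither passed in limma. Leaving out 1 day gave -3.42 to -1.60 for Cxcl10 and -4.82 to -2.03 for Cxcl11, the smaller sizes being those without day 3. Again 2 of the 4 members passed, beside 12.8% of all genes tested, with a median difference of 0.05 over all genes. Without day 5 Cxcl9 was no longer called (-4.79, adjusted p = 0.141). Cxcr3 was no longer called without day 3, day 5 or day 7, with adjusted p of 0.0855, 0.251 and 0.0596 in limma. The block was compared with the IgG arm, so the difference does not involve the untreated or CTL arrays other than through the shared spread and day terms.

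The IgG arm against untreated tumours is the second reading of CTL transfer, and it shares the untreated arrays with the first. Cxcl9 rose by 5.92 ± 0.72, a 60.7-fold change (limma, adjusted p = 0.00134). Cxcr3 fell by 0.75 ± 0.21 (limma, adjusted p = 0.0386), and Cxcl10 (2.02 ± 0.80, adjusted p = 0.120) and Cxcl11 (2.62 ± 1.13, adjusted p = 0.148) did not pass. So 2 of 4 members passed beside 18.9% of all genes. Without day 3 the Cxcl9 difference was 4.93 (adjusted p = 0.00418), without day 5 it was 6.12 and was not called (adjusted p = 0.0535), and without day 7 it was 6.72. Cxcr3 was not called without any 1 of the 3 days, with log2 differences of -0.45, -0.81 and -0.99 and adjusted p of 0.175, 0.239 and 0.0502 in limma. That call was also lost with normexp (adjusted p = 0.0740), median centring (0.0521), no filter on dim probes (0.0874), 1 CTL effect for all days (0.148) and only the 2 arms' arrays (0.1503).

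Set against untreated tumours, none of the 4 members passed in the anti-IFNg arm, where 0.163% of all genes did. Cxcl9 differed by 1.00 ± 0.72 (limma, adjusted p = 0.881), Cxcl10 by -0.44 ± 0.80, Cxcl11 by -0.63 ± 1.13 and Cxcr3 by 0.16 ± 0.21. The Cxcl9 estimate rests on day 3, because without that day it was -0.16. None of the 4 passed between the IgG and CTL arms either, where 0.0121% of all genes did while 3102 reached an unadjusted p of less than 0.05. The IgG minus CTL differences were -0.44 ± 0.72 for Cxcl9, -0.00 ± 0.80 for Cxcl10, -0.60 ± 1.13 for Cxcl11 and 0.24 ± 0.21 for Cxcr3. The signs of the Cxcl9 and Cxcl10 values flipped under some alternatives. A missed threshold does not show that arms were alike.

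On day 1, 1 day after transfer, the CTL array exceeded the untreated array by 1.20 for Cxcl9, 0.18 for Cxcl10, 0.33 for Cxcl11 (both arrays not well above background) and 0.03 for Cxcr3. The later CTL effect minus the day 1 effect was 5.16 ± 1.44 for Cxcl9 (limma, adjusted p = 0.171), 1.84 ± 1.60 for Cxcl10, 2.90 ± 2.26 for Cxcl11 and -1.02 ± 0.41 for Cxcr3. None of the 4 passed, beside 1.04% of all genes. Day 1 has 1 array per arm, so the size of its effect has no replicate of its own.

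The additive comparison gives each arm 1 effect over days 3 to 7, whereas the ligands changed size from day to day. A day-specific analysis was therefore added after seeing the data. It takes the CTL and IgG arrays of a day as 2 samples of CTL-treated tumours with interferon gamma not blocked, and it leaves 3 residual degrees of freedom. The lone untreated or anti-IFNg array of a day is assumed to vary like that pair, so its own spread is not measured, and any difference between CTL and IgG treatment counts as spread. The analysis was chosen with the day 3 peak of these genes in view, so its p-values are a description and do not replace the additive comparison, in which Cxcl10 and Cxcl11 did not pass. Against the untreated array of day 3, Cxcl10 was higher by 4.22 ± 0.22 (limma, adjusted p = 0.000988) and Cxcl9 by 8.34 ± 0.45 (adjusted p = 0.00107). Cxcl11 was at least 53.1-fold higher, since the untreated array was not well above background (fitted log2 difference 5.88, limma, adjusted p = 0.00394). Cxcr3 was lower on that day, with a difference of -1.48 ± 0.23 (limma, adjusted p = 0.0230). On that day 6.68% of all genes had an adjusted p under 0.05. On day 5 Cxcl9 (5.42 ± 0.45, adjusted p = 0.00442) and Cxcl10 (1.36 ± 0.22, adjusted p = 0.0257) were under 0.05 in limma, beside 6.74% of all genes. Cxcl11 at 2.27 ± 0.52 (adjusted p = 0.0701) and Cxcr3 at -0.71 ± 0.23 (adjusted p = 0.148) were not. On day 7 Cxcl9 alone of the 4 was under 0.05 (4.67 ± 0.45, limma, adjusted p = 0.0150), beside 2.24% of all genes. The day 7 differences of the others were 0.48 ± 0.22 for Cxcl10, 0.63 ± 0.52 for Cxcl11 and -0.41 ± 0.23 for Cxcr3.

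The same analysis set the anti-IFNg array of each day against the pair of unblocked arrays. On day 3 Cxcl9 differed by -5.03 ± 0.45 (limma, adjusted p = 0.00679), Cxcl10 by -4.32 ± 0.22 (adjusted p = 0.00152) and Cxcr3 by 1.39 ± 0.23 (adjusted p = 0.0391), beside 4.04% of all genes under 0.05. Cxcl11 was at least 39.3-fold lower on that day (fitted log2 difference -6.08, limma, adjusted p = 0.00574), the anti-IFNg array being not well above background. On day 5 the differences were -5.09 ± 0.45 for Cxcl9 (limma, adjusted p = 0.0102) and -2.54 ± 0.22 for Cxcl10 (adjusted p = 0.00956), beside 3.12% of all genes under 0.05. Cxcl11 was at least 9.03-fold lower, again against an array not well above background (fitted -3.93, limma, adjusted p = 0.0263), and Cxcr3 at 0.95 ± 0.23 was not under 0.05. On day 7 Cxcl9 was (-5.31 ± 0.45, limma, adjusted p = 0.0150), beside 2.69% of all genes, and Cxcl10 (-0.52 ± 0.22), Cxcl11 (-0.66 ± 0.52) and Cxcr3 (0.74 ± 0.23) were not. The decline itself, the effect on day 3 minus that on day 7 against untreated tumours, was 3.68 ± 0.63 for Cxcl9, 3.74 ± 0.31 for Cxcl10, 5.25 ± 0.73 (fitted) for Cxcl11 and -1.07 ± 0.32 for Cxcr3. None of these passed in limma (adjusted p of 0.169, 0.0527, 0.116 and 0.438), beside 0.0181% of all genes.

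**Figure D2:**
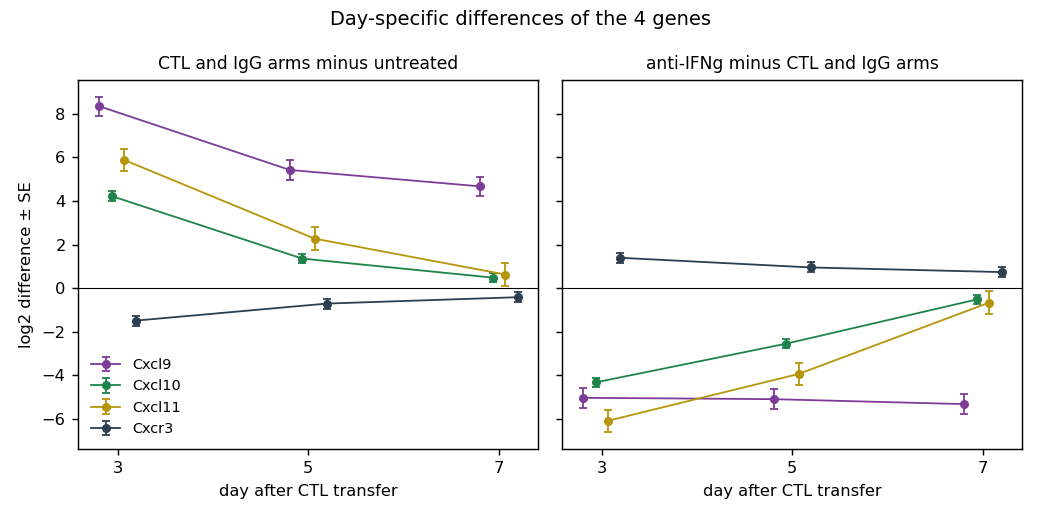
Day-specific log2 differences ± SE (y axis) against day after CTL transfer (x axis) for the 4 genes: the CTL and IgG arrays against the untreated array (left) and the anti-IFNg array against the CTL and IgG arrays (right). Cxcl9 kept a difference of 4.67 on day 7 on the left, where Cxcl10 and Cxcl11 were at 0.48 and 0.63. The Cxcl11 points of day 3 (both panels) and day 5 (right) are fitted values against an array not well above background.

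The sizes of the ligands' changes were set side by side, and no pair could be told apart by test in this design. Under CTL the change of Cxcl9 exceeded that of Cxcl10 by 4.40, 4.07 and 4.55 on days 3, 5 and 7, a mean of 4.34 ± 0.24 (SD, n = 3 days). Under the block the Cxcl9 minus Cxcl10 difference went from -0.43 on day 3 to -2.53 and -4.43 on days 5 and 7. Same-day values of the pairs with Cxcl11 are not described, because they include arrays on which Cxcl11 was not well above background. Each of the 6 pairs was tested with an exact two-sided sign-flip permutation test over 3 days, whose smallest possible p is 0.25. The p was 0.25 for 4 pairs and 0.5 for the Cxcl9 with Cxcl11 and Cxcl10 with Cxcl11 pairs under the block (0.375 and 0.5 adjusted over 6 pairs by Benjamini-Hochberg), so the design could not pass any of them. These are differences between log2 changes, not between levels of the genes.

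The ligands moved beside the interferon gamma pathway that induces them, described here by lists chosen with earlier results of these data known. Of 10 genes of interferon gamma signalling, 7 rose and none fell under CTL, with a median difference of 3.12 against -0.11 over all genes. With the block 5 of 10 fell (median -2.03 against 0.05). Beside these, 32.1% of all genes were called under CTL and 12.8% with the block. Ifng itself, the cytokine, stood at -4.44, -4.96, -4.32 and -6.05 in untreated tumours, well above background only on day 5. In the CTL arm it stood at -2.86, 2.74, 0.45 and -1.55 on days 1, 3, 5 and 7, so it too was highest on day 3. It rose by 5.66 ± 0.56 under CTL (limma, adjusted p = 0.000496) and did not pass with the block (-1.79 ± 0.56, adjusted p = 0.0737). In the day-specific analysis with the block it differed by -2.17 on day 3 (limma, adjusted p = 0.0257), -1.98 on day 5 (adjusted p = 0.0393) and -1.65 on day 7 (adjusted p = 0.0681). Irf1, a transcription factor that interferon gamma induces, rose by 3.86 ± 0.51 and was lower with the block (-3.62, limma, adjusted p = 0.00476). Ciita, the MHC class II transactivator, rose by 6.07 and was at -4.42 with the block, and Irf8 rose by 5.45 and was at -4.56, all called. The receptor chains Ifngr1 (-0.30 ± 0.12, adjusted p = 0.0815) and Ifngr2 (0.10 ± 0.16, a sign that flipped with median centring, normexp background correction, the mean of probes and without day 5) did not pass under CTL in limma.

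Genes of the other inputs to Cxcl10 and Cxcl11, type I interferon and NF-kB, were measured for 12 of 13. Of these, 8 rose under CTL (median 0.93, against -0.11 over all genes, of which 32.1% were called), and 5 fell and 1 rose with the block (median -0.58, against 0.05 over all genes, of which 12.8% were called). Irf9, the DNA-binding subunit of the complex that acts on interferon-stimulated response elements, rose by 1.82, and Irf7, an amplifier of interferon responses, rose by 4.41. With the block Irf9 was at -1.66 and Irf7 at -4.08, both called. Tnf, the cytokine that acts through NF-kB, rose at least 5.00-fold (fitted log2 difference 3.29), because it was not well above background in untreated tumours (limma, adjusted p = 0.00221). With the block Tnf was at least 4.17-fold lower (fitted -3.05, limma, adjusted p = 0.00639). Ifnb1 was too dim to be tested.

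**Figure D3:**
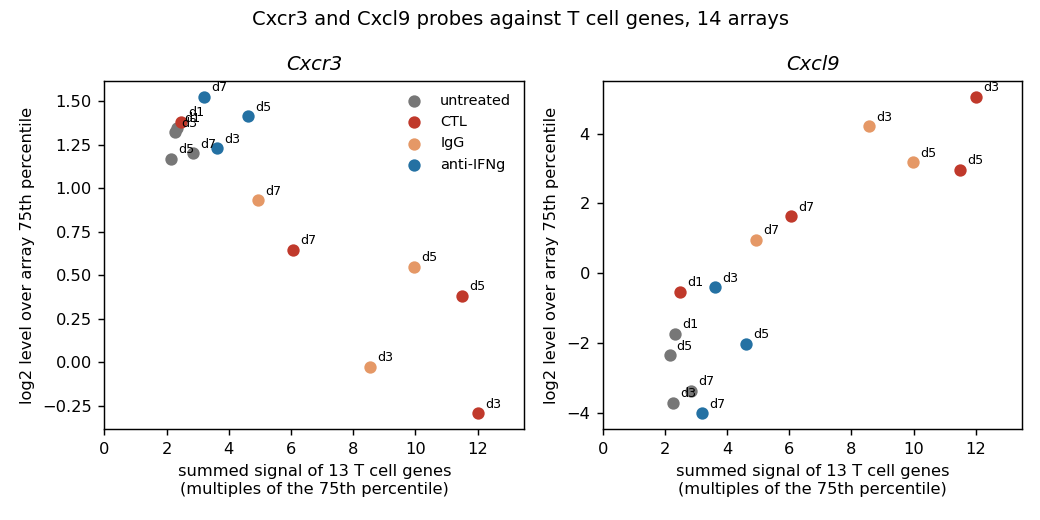
Log2 level of the Cxcr3 probe (left) and the Cxcl9 probe (right) against the summed signal of 13 T cell genes in multiples of the array's 75th percentile (x axis), 1 point per array, labelled by day. The CTL and IgG arrays of days 3 to 7 lie at sums of 4.93 to 12.02, where Cxcr3 is low and Cxcl9 is high. The sum includes the Cd8b1 probe that fell under CTL.

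The Cxcr3 probe went against genes of the cells known to carry the receptor. Over all genes, 32.1% were called under CTL (median difference -0.11) and 12.8% with the block (median 0.05). Of 13 measured T cell genes (of 14 listed, Trat1 being below background throughout), 11 rose and 1 fell under CTL, with a median difference of 2.52. With the block 7 of these T cell genes fell and 1 rose. Their summed signal was 2.15 to 2.85 times the array's 75th percentile in untreated tumours and 6.06 to 12.02 in the CTL arm from day 3. It was 4.93 to 9.97 in the IgG arm and 3.20 to 4.61 with the block. The highest sum and the lowest Cxcr3 level were both on the CTL array of day 3. In the IgG arm the sum was highest on day 5 (9.97, against 8.55 on day 3) and Cxcr3 was lowest on day 3. With the block the sums exceeded those of all untreated arrays. The mean Cxcr3 level of days 3 to 7 was 1.39 with the block and 1.23 in untreated tumours. These sums include the Cd8b1 probe that fell under CTL and rose with the block, so they do not measure T cell content alone. Cd8a, the coreceptor chain of cytotoxic T cells, was not well above background in any untreated array and was at least 22.0-fold higher in the CTL arm (fitted log2 difference 6.22, limma, adjusted p = 1.59e-05). Cd3e, a CD3 signalling chain, rose by 0.54 ± 0.14 (limma, adjusted p = 0.0220), and Zap70, a kinase of that complex, rose at least 12.7-fold. Of the listed natural killer cell genes, Ncr1 and Klre1 were below background on all arrays. The 4 measured all rose under CTL, beside 32.1% of all genes called, at a fitted median of 3.59. None of the 4 was well above background on any untreated array. As bounds, they rose at least 1.68-fold (Klrb1c), 1.95-fold (Klra8), 9.09-fold (Klrk1) and 15.1-fold (Klrd1). Their summed signal was 0.06 to 0.11 in untreated tumours, 0.80 to 1.79 in the CTL arm from day 3, 0.52 to 1.62 in the IgG arm and 0.13 to 0.37 with the block. In pooled tumour RNA, fewer cells of a type and less RNA per cell cannot be told apart. The part of cell composition in the Cxcr3 values was not tested.

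Cd8b1 shows that a symbol on this array can cover probes that disagree. The Cd8b1 probe used for the gene, the brighter of its 2 probes, was the T cell gene that fell, by 0.85 ± 0.09 under CTL, and it rose by 0.85 with the block, both signs that turned with normexp and with the mean of its probes. The same probe enters the summed signal of the T cell genes. That probe is placed at chr5:115404420-115404479, whereas the other is placed at chr6:71266583-71266641 and differed by 4.92 under CTL and by -1.77 with the block (limma with every probe its own row, adjusted p = 0.000137 and 0.0202). Cxcr3 has 1 probe here, so no second probe can be set against it. Its placement on chromosome X is between probes of Ogt, 47.8 kb to the left (a log2 difference of -0.49 under CTL and 0.17 with the block), and Gm4779, 60.7 kb to the right (0.36 and -0.20). That Ogt probe was called under CTL (limma with every probe its own row, adjusted p = 0.0226). Another Ogt probe, 52.3 kb to the left, was at -0.07 under CTL and -0.27 with the block, neither called. Whether the Cxcr3 probe measures the receptor's mRNA was not tested.

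Genes that control or accompany CXCR3 on T and natural killer cells went with the T cell genes. Of 7 measured (of 10 listed), 6 rose under CTL at a median of 3.78, beside 32.1% of all genes called. With the block 5 of them fell at a median of -2.01, beside 12.8% of all genes called. Tbx21, the transcription factor T-bet that activates Cxcr3, stood at -5.07, -5.42, -5.84 and -4.32 in untreated tumours, none well above background, and at -4.01, -0.45, -0.24 and -1.22 in the CTL arm on days 1, 3, 5 and 7. It rose at least 13.47-fold (fitted log2 difference 4.55 ± 0.59, limma, adjusted p = 0.00151) and was lower with the block (-2.69, adjusted p = 0.0224). Il2rb, a chain of the interleukin 2 receptor, rose by 4.81 and was at -2.03 with the block, both called. The Tbx21 and Cxcr3 probes thus moved in opposite directions in both comparisons.

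Downstream of the receptor, 11 of 12 signalling and adhesion genes were measured, of which 7 rose and 1 fell under CTL, and 7 fell and 1 rose with the block. Beside these, 32.1% of all genes were called under CTL and 12.8% with the block. Icam1, an endothelial and leukocyte adhesion molecule, rose by 2.84 and was at -2.06 with the block, and Rac2, a GTPase of leukocyte migration, rose by 3.44 and was at -1.93. Itga4, an integrin chain, was the exception, at -1.07 under CTL and 1.41 with the block, as for Cxcr3. Among 7 of 10 genes that modify the ligands or bind them elsewhere, 3 rose and 1 fell under CTL, beside 32.1% of all genes called in either direction. Dpp4, the peptidase that trims the ligands' amino terminus, rose at least 1.56-fold (fitted log2 difference 2.16 ± 0.34, limma, adjusted p = 0.00352). With the block it was called lower, at least 1.498-fold (fitted -1.35, limma, adjusted p = 0.0377), a sign that flipped with normexp (0.0069). From day 3 on, no untreated and no anti-IFNg array showed its probe well above background, against 2 of 3 CTL arrays. Ackr3, the scavenging receptor of CXCL11 and CXCL12, did not pass in either comparison (-0.27 ± 0.53 and 0.36 ± 0.53), and both signs flipped under some alternatives. Ccl5, a chemokine that attracts T cells, rose by 3.58 and was at -2.59 with the block.

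Of 6 measured CXC ligands that do not bind CXCR3 (of 10 listed), 1 rose and 1 fell under CTL, a share near the 32.1% of all genes called. With the block 2 of the 6 fell, beside 12.8% of all genes called. Cxcl16, the ligand of CXCR6, rose by 3.95 ± 0.19 (limma, adjusted p = 2.29e-05) and was at -2.38 with the block. Ppbp, a platelet chemokine, was lower (-1.63 ± 0.47), with a sign that flipped under normexp. Cxcl14 was lower with the block by at least 3.58-fold (limma, adjusted p = 0.0284), being not well above background on any anti-IFNg array. Of the 4 other CXC receptors 1 was measured, Cxcr4, which rose by 1.03 ± 0.34 (limma, adjusted p = 0.0496) and did not pass with the block (-1.10).

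Genes of other cell types were read by the same lists. Of these types, macrophages, dendritic cells and endothelial cells are among those known to make the ligands. Over all genes, 32.1% were called under CTL, 12.8% with the block and 18.9% in the IgG arm against untreated tumours. All 9 measured monocyte and macrophage genes rose under CTL, at a median of 2.23, and 7 fell with the block. Among them Fcgr1, an antibody receptor induced by interferon gamma, rose by 3.56, and Cd68, a lysosomal protein of macrophages, rose by 1.67 ± 0.32 and did not pass with the block (-0.75). Their summed signal was 21.7 to 30.9 in untreated tumours, 77.8 to 105 in the CTL arm from day 3, 58.7 to 112 in the IgG arm and 36.2 to 64.9 with the block, and Ly6c2 was below background throughout. Of 8 endothelial genes, 5 fell under CTL and 6 rose with the block. Emcn, a capillary and venous surface protein, was at -1.38 and 1.05, and Pecam1 at 0.44 ± 0.39 and -0.18 did not pass and flipped sign without day 5 and day 7, respectively. Of 3 measured neutrophil genes Csf3r rose at least 1.44-fold, with 1 of 3 CTL arrays well above background, with Ly6g, Cxcr2 and Retnlg below background, and of 5 dendritic cell genes 2 rose, among them Itgax by 2.28, a share near the 32.1% of all genes, and none of the 5 passed with the block. None of 8 melanocyte genes passed in either comparison. Of 4 measured keratinocyte genes, 3 rose in the CTL arm (median 1.17) and none passed in the IgG arm against untreated tumours (median -0.13), and their summed signal was 0.92 to 1.43 in the CTL arm from day 3, 0.40 to 0.71 in untreated tumours, 0.40 to 0.56 in the IgG arm and 0.32 to 0.43 with the block. Of 3 measured erythroid genes, 2 fell under CTL and none passed in the IgG arm against untreated tumours. The part of these cell types in the ligand values was not tested.

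Genes beside the ligands on chromosome 5 served to show whether the change was shared by the region. Within 500 kb of the Cxcl10 probe, the ligand probes had the largest differences among all probes that passed the filter, in the fit with every probe as its own row. Naaa, an acid amidase whose probe lies 88.1 kb to the left, rose by 1.43 (limma, adjusted p = 0.00112) and was lower with the block (-0.78, adjusted p = 0.0234). G3bp2, a stress granule protein whose 3 probes lie 291 to 294 kb to the left, rose on each of them (by 0.51 to 0.95) and was lower with the block on 2 (-0.59 each, limma, adjusted p = 0.00825 and 0.00807). It was picked after its values were seen. Sdad1 was called lower under CTL on its probe 62.6 kb to the left (-0.46, limma, adjusted p = 0.0323). Its other probe, 62.8 kb to the left, was at -0.45 and was not called (limma, adjusted p = 0.151). Art3, 67.6 kb to the right and on the other strand, did not pass (-1.12 and 0.54). The scanner files give no exon annotation for these probes.

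**Figure D4:**
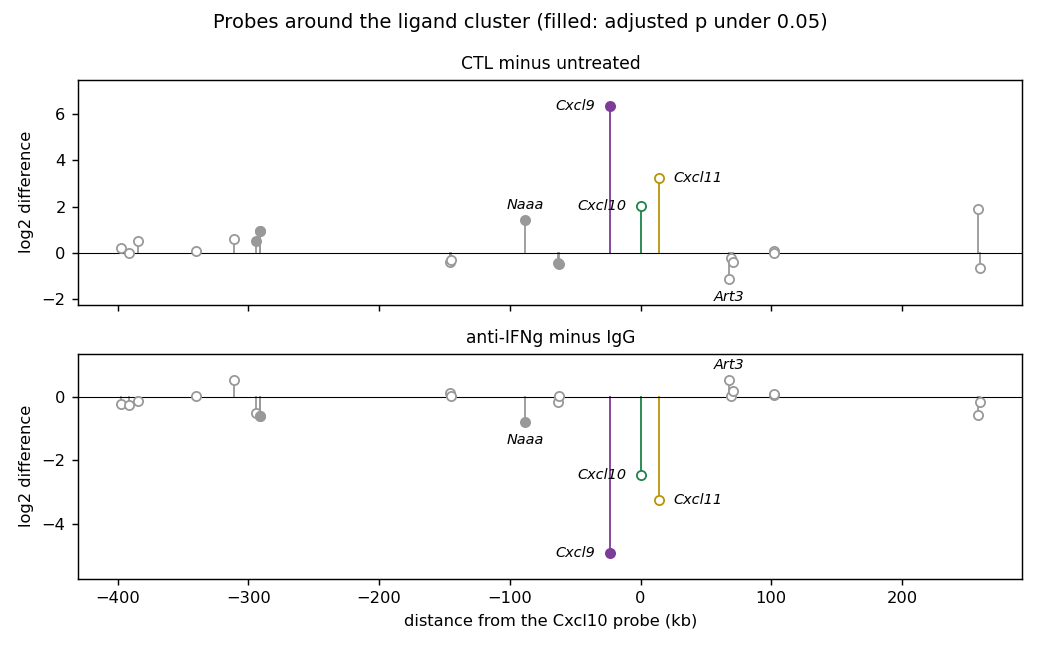
Log2 difference (y axis) of each probe that passed the filter within 500 kb of the Cxcl10 probe against its distance from that probe in kb (x axis), for CTL minus untreated (top) and anti-IFNg minus IgG (bottom), filled where the adjusted p was under 0.05. The Cxcl9 probe stands at 6.36 and -4.92 and the neighbouring genes lie closer to 0.

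Of 16583 genes, those with ordinary symbols were ranked by Pearson's r with each member over the 14 arrays. Transcripts named only by accession, clone or predicted-gene symbols were left out. The genes that followed each member most closely are given as a description only, since the arrays share slides, arms and scaling. For Cxcl9 these were Igtp (r = 0.993), Gbp6 (0.992), Gbp4 (0.989), Irgm2 (0.988) and Ubd (0.988), of which Igtp and Irgm2 are immunity-related GTPases and the Gbp genes guanylate-binding proteins. All 5 rose under CTL, by 4.89 (Irgm2) to 7.60 (Gbp6) for those 4 and at least 97.7-fold for Ubd, which was not well above background in untreated tumours (fitted log2 difference 8.25), and all 5 fell with the block. For Cxcl10 they were Asb13 (0.986), Cxcl11 (0.985), Aida (0.983), Daxx (0.977) and Samhd1 (0.975), and for Cxcl11 they were Cxcl10 (0.985), Socs2 (0.981), Cx3cl1 (0.977), Rhbg (0.976) and Asb13 (0.975). Cxcl10 and Cxcl11 followed each other more closely than either followed Cxcl9 (0.858 and 0.857). For Cxcr3 they were Tom1l2 (0.987), Ssbp4 (0.982), Rab3a (0.976), Pradc1 (0.975) and Osbpl6 (0.974). Of those, Tom1l2, Rab3a, Pradc1 and Osbpl6 fell under CTL, by 0.84 to 1.08, and Ssbp4 did not pass (-0.26). Of the ranked genes, the one most opposite to Cxcr3 was Notch1 (r = -0.990). The r of Cxcr3 was -0.922 with Cxcl9, -0.942 with Cxcl10, -0.965 with Cxcl11 and -0.725 with Cd8a.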

How the data were processed

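Tumour RNA pools were measured on 14 one-colour Agilent arrays. Agilent Feature Extraction read the images, in version 9.5 by the submitters' processing notes and 9.5.3.1 per the file headers. Its background-subtracted linear spot intensity is what the authors deposited per array. The authors' deposited log2 table of the same arrays differed from log2 processed signal by a constant per array (r = 1 over 41174 probes) and served as an alternative. Here, log2 processed signal minus the array's 75th percentile was averaged over a probe's spots without outlier spots. Between 48.9% and 59.7% of spots per array were well above background, the 75th percentile lay between 301 and 536, and no non-control spot was saturated. The number of arrays limits precision. A probe was kept if well above background on 3 or more arrays, and a gene was read by its probe of highest mean. An accession in the RefSeq table of GRCm38.p6 named 24367 probes.

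limma 3.58.1 in R 4.3.3 fitted arm and day with a separate CTL day 1 term over all 14 arrays (6 residual degrees of freedom) and was tested on simulated arrays. Same-day arrays deviated together weakly (median r 0.133 over 18 pairs, 12 over 0.1). Non-members named are members' 5 most like genes, 12 set genes and, per list, some of the up to 4 with the smallest p under CTL and up to 2 more under the block. Some genes that this rule names are not reported here. Members and lists were chosen with earlier results of these data known. Alternatives are given at the end.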

Additional observations from a re-analysis of the deposited data

How the results depend on the processing

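All 24 comparisons of a member (4 members in 6 comparisons) kept their direction under the alternatives tried, apart from Cxcl9 in anti-IFNg minus untreated without day 3 (range without 1 day -0.16 to 1.82), Cxcl9 in IgG minus CTL with 1 CTL effect for all 4 days (0.21), and Cxcl10 in IgG minus CTL with normexp background correction (0.33), median centring (0.12), 1 CTL effect (0.23) and without day 3 (0.14). Under CTL, Cxcl11 passed with normexp (1.84), without the day block (3.38) and with an intensity trend (3.23). Cxcr3 lost its call with 1 CTL effect (-0.73) and with only the 2 arms' arrays (-0.99). Leaving out 1 day gave 1.71 to 4.26 for Cxcl11 and -1.20 to -0.67 for Cxcr3. With the block, Cxcl9 lost its call with 1 CTL effect (-4.92), Cxcl10 gained it with an intensity trend (-2.46), and Cxcr3 lost it with no filter, 1 CTL effect and only the 2 arms (0.91 each). Leaving out 1 day gave -5.08 to -4.79 for Cxcl9 and 0.73 to 1.06 for Cxcr3. In the day-specific analysis, added after seeing the data, the calls that differed were Cxcl10 (4.22 and 1.36 on days 3 and 5 under CTL, -4.32 and -2.54 with the block), Cxcl11 (fitted 5.88 on day 3 under CTL, -6.08 and -3.93 on days 3 and 5 with the block) and Cxcr3 (-0.71 and -0.41 on days 5 and 7 under CTL, 0.95 and 0.74 with the block).

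Counts of genes called moved more. For CTL minus untreated 5319 genes became 3287 with no filter, 1838 with 1 CTL effect, 842 with only the 2 arms, and 666 to 5319 without 1 day. For anti-IFNg minus IgG 2129 became 648 with normexp, 1161 with no filter, 2 with 1 CTL effect, 964 with only the 2 arms, and 50 to 2129 without 1 day. For IgG minus untreated 3129 became 950 with normexp, 1998 with no filter, 1707 with 1 CTL effect, 1058 with only the 2 arms, and 522 to 3129 without 1 day. For anti-IFNg minus untreated 27 became 2 with normexp, 55 with median centring, 10 with no filter, 3 without the day block, 0 with 1 CTL effect, 0 with only the 2 arms, and 1 to 27 without 1 day. For IgG minus CTL 2 became 0 with normexp, 6 without the day block, 4 with 1 CTL effect, 0 with a trend, 0 with only the 2 arms, and 0 to 2 without 1 day. For the later minus day 1 effect 173 became 42 with normexp, 1546 without the day block, 279 with a trend, 0 with only the 2 arms, and 4 to 298 without 1 day. The share of higher among called genes went from 32.2% to 44.4% with normexp under CTL, from 52.7% to 22.4% with the block and from 40.3% to 64.8% in the IgG arm, and normexp moved the median of all genes under CTL from -0.11 to 0.06. Removing the day block, which pairs arms by slide, left 6268, 2093 and 3629 genes in the first 3 comparisons and changed no other member's call.

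Under normexp the Cxcl9 minus Cxcl10 change under CTL was 3.19 (main value 4.34). The Cxcl10 minus Cxcl11 change was -0.21 under CTL (main value -1.21). With the block it was -0.50 (main value 0.80), so its sign turned. The values with Cxcl11 include arrays on which Cxcl11 was not well above background. Each ligand has 1 probe, so the mean of probes equals the main value. Of the 20 most like genes, 13 were kept over the 12 arrays of days 3 to 7 and 8 by Spearman's rho. Among other genes, signs turned for Ifngr2 (-0.17 normexp, -0.040 median centring, -0.028 mean of probes, -0.12 to 0.28 without 1 day), Ackr3 (0.33 normexp and -0.79 to 0.0099 without 1 day under CTL, -0.028 normexp and -0.28 to 1.16 without 1 day with the block), Pecam1 (-0.13 to 0.84 without 1 day under CTL, -0.57 to 0.19 with the block), Ppbp (0.13 normexp), Dpp4 (0.0069 normexp with the block) and Cd8b1 (3.34 normexp and 2.04 mean of probes under CTL, -1.52 and -0.46 with the block). The cause was not tested, other than that fewer arrays or days enter some fits. Signal over background limits Cxcl11, which was dim on 6 of 14 arrays.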
